A study of Mus musculus with 5 samples.

Results

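Transcripts of 9 chemokine genes, Ccl3, Ccl4, Ccl5, Ccl6, Ccl9, Cxcl2, Cxcl9, Cxcl10 and Cxcl12, were followed through 5 RNA-seq libraries of C57BL/6 mouse blood cells. They were taken by gene symbol from 38166 features of the progenitor tables and 34315 features of the granulocyte tables, and each symbol matched 1 feature in both. The genes were chosen by their FPKM in these same libraries, granulocytes and KSL cells both, so their levels and ratios are given as a description, with no test. The granulocyte sample was Gr1+ bone marrow cells of 12-month animals, sequenced as 2 technical replicates of 1 biological replicate. The other 3 libraries were KSL cells, a c-Kit+, Sca-1+ marrow fraction without lineage markers in which stem and multipotent progenitor cells are found, with 1 library each for LncHSC-1-KD, LncHSC-2-KD and Control-KD. All 3 came from mice injected with 5-FU, a drug toxic to cycling cells. Their Sca-1+ cells received a knockdown retrovirus that carries GFP, spent 2 days in medium with mSCF at 10 ng/ml and mTPO at 100 ng/ml, and were sorted as GFP+ KSL cells. The LncHSC-1-KD virus targeted LncHSC-1 and the LncHSC-2-KD virus LncHSC-2, both long non-coding RNAs, in a search for their target genes. The sources used here do not state the constructs, their promoters, the age of these mice or how many were pooled. They do not tie either RNA to a feature of the tables, so how far each was knocked down is not reported. B cell libraries named in the study design are not analysed here.

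Chemokines are small secreted proteins that draw leukocytes along a gradient by binding G protein-coupled receptors. In CC chemokines the first pair of cysteines is adjacent, and in CXC chemokines 1 residue separates them. Ccl3, Ccl4 and Ccl5 attract monocytes and T cells, while Ccl6 and Ccl9 are rodent CC chemokines that act at Ccr1. Cxcl2 calls neutrophils out of the marrow through Cxcr2, Cxcl9 and Cxcl10 are interferon-inducible ligands of Cxcr3, and Cxcl12, made by marrow stroma, keeps stem cells and neutrophils in the marrow through Cxcr4.

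Levels are FPKM, the authors' read counts scaled by transcript length and library size. The count columns of the KSL libraries summed to between 20529584 and 22629745 and those of the granulocyte replicates to 40414961 and 40394825. The granulocyte FPKM uses a fixed divisor and comes from another experiment, so its levels are set beside those of the KSL cells with no fold. No KSL group had a replicate, so each difference is between 2 libraries and no p-value is given. In such bulk samples more cells of a type and more RNA per cell cannot be told apart. Kit, a sort marker of the KSL cells, matched the labels. It stood at 5.55 and 5.72 FPKM in the granulocyte replicates and at 59.1, 62.0 and 67.6 FPKM in the LncHSC-1-KD, LncHSC-2-KD and Control-KD libraries. S100a8, a calcium-binding protein of neutrophils, stood at 55377 and 57405 FPKM in the granulocyte replicates and at 41.5, 41.8 and 42.5 FPKM in the same 3 KSL libraries.

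Granulocytes carried 1 chemokine transcript far above the others. Ccl6, an attractant of macrophages and other leukocytes in mice, stood at 729 and 726 FPKM in the granulocyte replicates, and at 0.531 FPKM in LncHSC-1-KD, 0.558 in LncHSC-2-KD and 0.712 in Control-KD. It ranked 38 among the features of the granulocyte sample and 12860 among those of the control KSL library. It held 95.9% of the summed FPKM of the 9 chemokines in granulocytes. The KSL level rested on 20, 17 and 23 estimated reads in the LncHSC-1-KD, LncHSC-2-KD and Control-KD libraries, whose counting intervals overlapped.

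The other granulocyte chemokines stood at 8.63 FPKM or less. Ccl9, the closest relative of Ccl6 on the same chromosome, was at 8.46 and 8.63 FPKM in the replicates, and Ccl5, an attractant of T cells and monocytes, at 8.37 and 7.80. Ccl3, which also restrains the cycling of blood stem cells, was at 6.23 and 6.76, Cxcl2 at 4.04 and 3.99, and Ccl4 at 3.04 and 3.14 FPKM. Cxcl10 stood at 1.13 and 0.894, Cxcl9 at 0.159 and 0.152 and Cxcl12 at 0.0727 and 0.0559 FPKM, the last on 26 and 20 scaled counts. The gap between Ccl9 and Ccl5 was smaller than the spread of Ccl5 between the replicates. In all, 4 of the 9 reached 5 FPKM, against 17.7% of all granulocyte features. Markers of other cells were also read in this sample. Of monocyte, macrophage and dendritic markers 13 of 23 reached 5 FPKM, among them Csf1r at 58.7 and 56.8 FPKM. Of T and NK markers 2 of 19 did, among them Cd3d at 6.26 and 6.85 FPKM. Which cells of the sample held the chemokine transcripts was not tested.

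KSL progenitors had Ccl9, Cxcl10 and Ccl5 at the top, and little Ccl6. In the control KSL library Ccl9 stood at 54.1 FPKM (counting interval 52.4 to 55.8), Cxcl10 at 52.2 (49.3 to 55.2) and Ccl5 at 34.5 (30.8 to 38.5). Ccl4 was at 9.58 (7.95 to 11.4) and Ccl3 at 7.66 FPKM (6.36 to 9.15). The intervals of Ccl9 and Cxcl10 overlapped, as did those of Ccl4 and Ccl3, so neither pair had a firm order. Below them Ccl6 stood at 0.712, Cxcl2 at 0.171, Cxcl12 at 0.157 and Cxcl9 at 0.101 FPKM, and the intervals of the last 3 overlapped. Counting intervals are exact Poisson intervals at 95% on estimated reads; PCR copies are not independent molecules, so they cover counting error only. Of the 9 genes 5 reached 5 FPKM, against 23.9% of all features of that library.

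**Figure D1:**
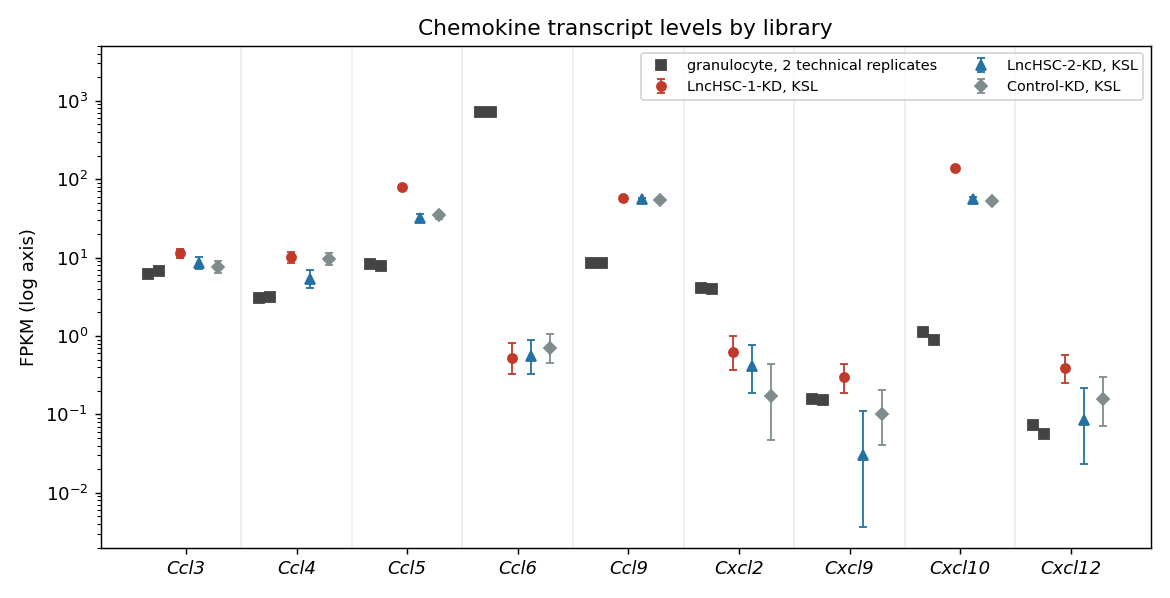
FPKM on a log axis of 9 chemokine genes in the 2 granulocyte replicates (squares) and the 3 KSL libraries, 1 per group, with 95% counting intervals for KSL. Ccl6 stands at 729 and 726 FPKM in granulocytes and under 1 FPKM in KSL cells, while Cxcl10 and Ccl5 are highest in LncHSC-1-KD.

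The CC genes lie side by side. On mm9 chromosome 11, Ccl5 (83339281 to 83344020), Ccl9 (83386419 to 83392138), Ccl6 (83401388 to 83406589), Ccl3 (83461345 to 83462880) and Ccl4 (83476086 to 83478185) fill 138.9 kb, with Ccl4 on the plus strand and the other 4 on the minus strand. The 2 neighbours Ccl9 and Ccl6 are 9.25 kb apart and differed in where they were high. Ccl9 averaged 8.54 FPKM in granulocytes and stood at 57.0, 55.1 and 54.1 FPKM in LncHSC-1-KD, LncHSC-2-KD and Control-KD. Ccl6 averaged 728 FPKM in granulocytes and was below 1 FPKM in each KSL library. E230016K23Rik overlaps Ccl6 on the opposite strand, and the sources used here do not say whether reads were counted by strand, so reads of the pair cannot be told apart. It held 198 and 219 scaled counts in the granulocyte replicates, against 52207 and 51973 for Ccl6.

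**Figure D2:**
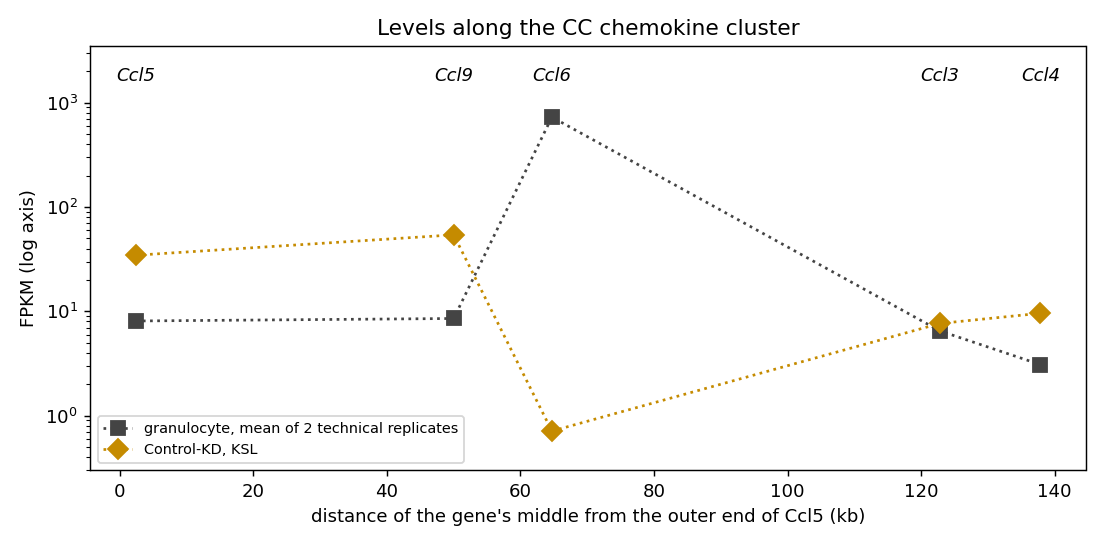
FPKM on a log axis against position along the CC cluster, in kb from the outer end of Ccl5, for granulocytes (squares, mean of 2 technical replicates) and the control KSL library (diamonds, 1 library), whose FPKM scales differ; dotted lines only join neighbouring genes. Granulocytes peak at Ccl6 at 728 FPKM, where the KSL library has its lowest value of 0.712 FPKM, and the KSL library is highest at Ccl9 at 54.1 FPKM.

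The stretches before both starts are shown because the genes are neighbours that were high in different cells. RefSeq promoter windows, build GRCm38.p6, held 7 of the 9 genes. Ccl4 and Ccl5 had no window, so their promoters were not searched. The 250 bases before the start of Ccl6, chr11:83593088-83593337, and of Ccl9, chr11:83578637-83578886, both on the minus strand, read 5′ to 3′ as follows. Capitals mark matches of the motifs searched.
Ccl6: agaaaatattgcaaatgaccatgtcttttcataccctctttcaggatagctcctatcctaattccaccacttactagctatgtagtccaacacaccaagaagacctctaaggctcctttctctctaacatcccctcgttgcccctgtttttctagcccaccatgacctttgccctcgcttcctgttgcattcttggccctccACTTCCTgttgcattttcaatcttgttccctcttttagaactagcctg
Ccl9: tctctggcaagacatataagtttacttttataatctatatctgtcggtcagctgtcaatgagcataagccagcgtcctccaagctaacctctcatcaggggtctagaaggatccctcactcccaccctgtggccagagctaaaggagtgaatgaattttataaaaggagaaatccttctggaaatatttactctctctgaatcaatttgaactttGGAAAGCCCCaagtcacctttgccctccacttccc
Both strands were searched for an ETS-like motif, AGGAAGT, an interferon-stimulated response element, GAAANNGAA, an interferon-γ activated site, TTCNNNGAA, and the NF-κB consensus. Of 32851 windows of this length 7.69%, 7.13%, 7.02% and 7.25% hold them, in that order. Ccl6 has the ETS-like motif on the minus strand of the window, at positions -48 to -42, where -1 is the last base before the start, and Ccl9 has the NF-κB consensus at -35 to -26. In the best local alignment of the full windows, which run 50 bases past the start, 59 of 74 columns were identical, or 79.7%. This stretch begins at position -59 of Ccl6 and at -18 of Ccl9.

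In the LncHSC-1-KD library 2 of the 9 chemokines, Cxcl10 and Ccl5, were at least 2-fold above control on the scale of FPKM + 1 among features with a mean of 5 FPKM or more. Both settings hold back low genes: with neither, 5 of 9 passed, the others being Cxcl2 (3.65-fold), Cxcl9 (2.94-fold) and Cxcl12 (2.48-fold), each on 25 or fewer reads in any library and with a read ratio interval above 0. Cxcl10, the ligand that draws activated T and natural killer cells through Cxcr3, stood at 137 FPKM in LncHSC-1-KD, 56.4 in LncHSC-2-KD and 52.2 in Control-KD. The LncHSC-1-KD library was alone in being high, and the counting intervals of the other two overlapped. On the scale of FPKM + 1, the log2 ratio to control was 1.38 in LncHSC-1-KD, with a counting interval of the read ratio of 1.30 to 1.49, and 0.11 in LncHSC-2-KD (-0.0035 to 0.22). These rested on 3807, 1266 and 1241 estimated reads in LncHSC-1-KD, LncHSC-2-KD and Control-KD.

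Ccl5, which acts at Ccr1 and Ccr3 among other receptors, was also highest in LncHSC-1-KD. It stood at 79.5 FPKM in LncHSC-1-KD, 32.4 in LncHSC-2-KD and 34.5 in Control-KD, on 868, 285 and 323 estimated reads. The LncHSC-1-KD value lay above the intervals of both other libraries, which overlapped each other. Its log2 ratio to control was 1.18 in LncHSC-1-KD (1.02 to 1.39) and -0.09 in LncHSC-2-KD (-0.33 to 0.14). Among 7940 named genes at a mean of 5 FPKM or more in the KSL libraries, Cxcl10 ranked 3 and Ccl5 ranked 6 from the top in LncHSC-1-KD against control. Of all 9153 features at that floor, 0.634% were at least 2-fold higher in LncHSC-1-KD than in control and 0.426% at least 2-fold lower. Since these ratios were known when the genes were chosen, nothing is read from the count of 2.

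**Figure D3:**
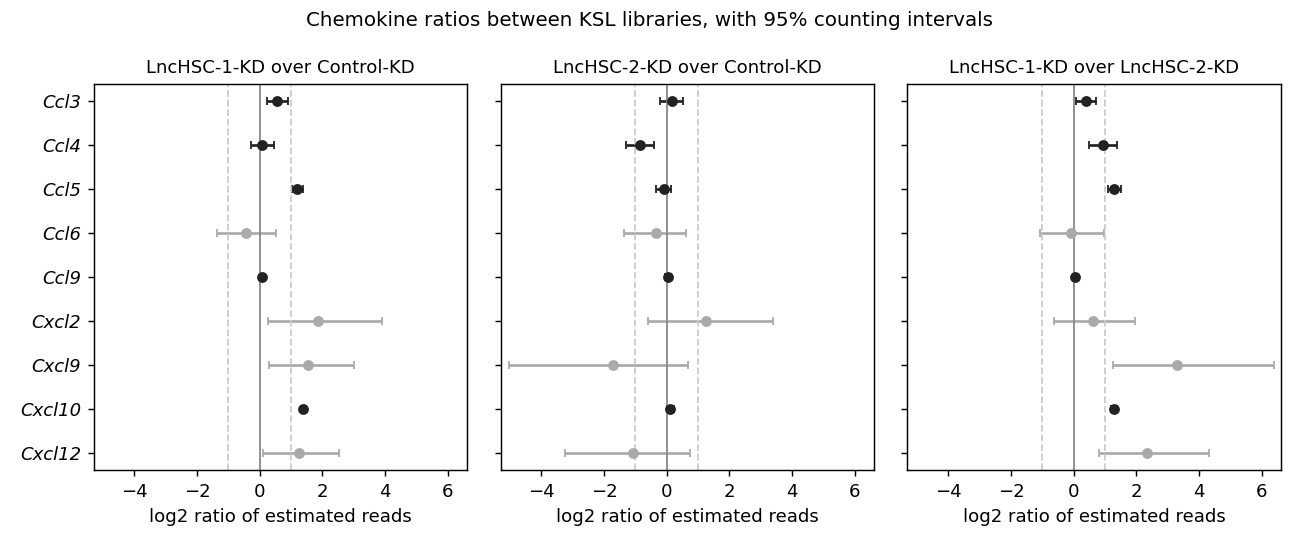
Log2 ratio of estimated reads for the 9 chemokines in 3 comparisons of KSL libraries, with exact 95% counting intervals; dashed lines mark 2-fold and grey points are genes below a mean of 5 FPKM. Cxcl10 and Ccl5 lie beyond 2-fold in both panels that have LncHSC-1-KD on top, and Ccl4 has the 1 interval of LncHSC-2-KD over Control-KD that lies below 0.

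Cxcl10 sits beside its relatives on mm9 chromosome 5 (92775665 to 92777915, minus strand), 18.6 kb from Cxcl9 (92750357 to 92757105, minus strand), and with Cxcl11 the 3 Cxcr3 ligands fill 41.97 kb. All 3 were highest in LncHSC-1-KD. Cxcl9, which is induced by interferon-γ, held 24, 2 and 7 estimated reads in LncHSC-1-KD, LncHSC-2-KD and Control-KD, or 0.296, 0.0304 and 0.101 FPKM. The read ratio of LncHSC-1-KD to Control-KD was 1.56 on the log2 scale (0.30 to 3.02), from few reads. Cxcl11, which is outside the 9 and was listed at 0 in both granulocyte replicates, stood at 8.35, 3.33 and 3.23 FPKM in LncHSC-1-KD, LncHSC-2-KD and Control-KD, a log2 ratio of 1.15 (1.07 to 1.68 for the reads) in LncHSC-1-KD against control. Art3 (92760867 to 92843653) spans Cxcl10 and Cxcl11 on the opposite strand. It held 17.6, 15.4 and 14.0 scaled counts in LncHSC-1-KD, LncHSC-2-KD and Control-KD, against 3517, 1304 and 1336 for Cxcl10.

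The promoters of Cxcl10 and Cxcl9 are shown because these neighbours were both highest in the same library. They are the 250 bases before the start of Cxcl10, chr5:92348890-92349139, and of Cxcl9, chr5:92328080-92328329, in GRCm38.p6 on the minus strand, from RefSeq.
Cxcl10: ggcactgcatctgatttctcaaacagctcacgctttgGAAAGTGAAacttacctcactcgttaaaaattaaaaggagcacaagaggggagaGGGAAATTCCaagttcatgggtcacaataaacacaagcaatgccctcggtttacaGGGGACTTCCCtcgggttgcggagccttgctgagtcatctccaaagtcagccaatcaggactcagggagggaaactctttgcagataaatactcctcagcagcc
Cxcl9: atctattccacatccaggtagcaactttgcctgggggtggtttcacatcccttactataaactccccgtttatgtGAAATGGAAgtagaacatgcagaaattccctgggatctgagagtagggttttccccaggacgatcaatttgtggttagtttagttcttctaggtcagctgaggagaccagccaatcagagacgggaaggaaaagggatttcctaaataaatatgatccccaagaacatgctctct
Capitals mark the same motifs. Cxcl10 holds an interferon-stimulated response element at positions -213 to -205, and the NF-κB consensus at -159 to -150 and, as an overlapping pair, at -104 to -94. Cxcl9 holds a response element match at -175 to -167. Of the other windows held, Ccl3 has a response element match and Cxcl2 an overlapping pair of NF-κB matches, and Cxcl12 has none of these letters. A match is a description of the letters and not evidence of binding.

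Ccl3 and Ccl4, adjacent genes for closely related attractants, stood apart from control in different knockdown libraries. Ccl3 stood at 11.3 FPKM in LncHSC-1-KD, 8.60 in LncHSC-2-KD and 7.66 in Control-KD, on 210, 129 and 122 estimated reads. The LncHSC-1-KD interval (9.83 to 12.9 FPKM) lay above that of control and overlapped that of LncHSC-2-KD. Its log2 ratio to control was 0.51 in LncHSC-1-KD (0.23 to 0.90) and 0.15 in LncHSC-2-KD (-0.21 to 0.53).

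Ccl4 stood at 10.2 FPKM in LncHSC-1-KD, 5.39 in LncHSC-2-KD and 9.58 in Control-KD, on 150, 64 and 121 estimated reads. Here the LncHSC-2-KD library was alone in being low, with an interval of 4.15 to 6.88 FPKM below those of the other two. Its log2 ratio to control was -0.73 in LncHSC-2-KD (-1.30 to -0.39) and 0.08 in LncHSC-1-KD (-0.27 to 0.45). It was the 6th lowest of the 7940 named genes in LncHSC-2-KD against control. On FPKM + 1 and at the floor, 0 of the 9 chemokines were 2-fold from control in LncHSC-2-KD, where 0.601% of all features at the floor were at least 2-fold higher and 0.35% at least 2-fold lower. With neither setting 2 passed, Cxcl2 higher at a ratio of 2.39 and Cxcl9 lower at 0.302, both with intervals that include 0. The 2 knockdown comparisons share the control library.

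Ccl9, the CC chemokine highest in control KSL cells, lay close to control in both knockdown libraries. With 4794, 3759 and 3904 estimated reads in LncHSC-1-KD, LncHSC-2-KD and Control-KD it was the most deeply read of the 9, and its log2 ratio to control was 0.074 in LncHSC-1-KD (0.014 to 0.14) and 0.026 in LncHSC-2-KD (-0.038 to 0.092). The intervals of its level overlapped in all 3 libraries, at 55.4 to 58.6 FPKM in LncHSC-1-KD, 53.4 to 56.9 in LncHSC-2-KD and 52.4 to 55.8 in Control-KD.

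The remaining 4 genes, Ccl6, Cxcl2, Cxcl9 and Cxcl12, had a mean below 5 FPKM in the KSL libraries. Cxcl2 stood at 0.624, 0.409 and 0.171 FPKM in LncHSC-1-KD, LncHSC-2-KD and Control-KD, on 17, 9 and 4 estimated reads. Cxcl12 stood at 0.391, 0.0848 and 0.157 FPKM in the same libraries, on 25, 4 and 9 reads. Both were highest in LncHSC-1-KD, with read ratios to control of 1.87 (0.25 to 3.90) and 1.25 (0.11 to 2.54) on the log2 scale, while on FPKM + 1 these ratios shrink to 0.47 and 0.27. Ccl6 was the 1 member lower in LncHSC-1-KD than in control, at a read ratio of -0.42 with an interval of -1.36 to 0.51 that includes 0. In LncHSC-2-KD against control the intervals of all 4 included 0, so differences in them were not detectable at this depth.

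Set against LncHSC-2-KD, with the control library left out, LncHSC-1-KD again had Cxcl10 and Ccl5 past 2-fold on FPKM + 1 at the floor, both at a log2 ratio of 1.27 (1.19 to 1.38 and 1.11 to 1.502 for the reads). At the floor 0.535% of all features were at least 2-fold higher and 0.612% at least 2-fold lower in this comparison. Ccl4 followed at 0.81 (0.49 to 1.37) and Ccl3 at 0.36 (0.08 to 0.73). Cxcl9, on 24 against 2 reads, had a read ratio of 3.28 (1.27 to 6.41), and Cxcl12, on 25 against 4, one of 2.34 (0.81 to 4.32), so that 4 of the 9 passed 2-fold with neither setting. Ccl9 (-0.014 to 0.11), Cxcl2 (-0.63 to 1.96) and Ccl6 (-1.08 to 0.95) had intervals that include 0. The summed FPKM of all 9 genes was 297 in LncHSC-1-KD, 159 in LncHSC-2-KD and 159 in Control-KD.

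Of 30 other chemokine genes 27 were found in the tables, and 0 of them reached 5 FPKM in granulocytes. In the KSL libraries Pf4, the platelet chemokine, exceeded all 9, at 467, 438 and 356 FPKM in LncHSC-1-KD, LncHSC-2-KD and Control-KD. Its log2 ratio to control was 0.39 in LncHSC-1-KD (0.33 to 0.45) and 0.30 in LncHSC-2-KD (0.23 to 0.35). Ppbp, also of platelets, stood at 7.37, 6.79 and 7.73 FPKM, and Ccl22, a ligand of Ccr4, at 4.45, 4.08 and 2.08 FPKM in the same order of libraries. Ccl22 was thus above control in both knockdown libraries, by 0.82 and 0.72 on the log2 scale. The monocyte attractants Ccl2 and Ccl7 stood at 2.94 and 2.39 FPKM in LncHSC-1-KD, at 1.37 and 0.986 in LncHSC-2-KD, and at 1.71 and 1.42 in Control-KD.

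Among the receptors of these chemokines, Cxcr2 and Ccr1 were high in granulocytes and low in KSL cells, and Cxcr4 was high in both. Cxcr2, the receptor of Cxcl2, stood at 552 and 550 FPKM in the granulocyte replicates, and at 0.658, 0.536 and 0.561 in LncHSC-1-KD, LncHSC-2-KD and Control-KD. Ccr1, the receptor of Ccl6 and Ccl9, stood at 208 and 209 FPKM in granulocytes and below 1 FPKM in each KSL library. Cxcr4, the receptor of Cxcl12, stood at 232.1 and 231.5 FPKM in granulocytes and at 30.5, 29.1 and 30.1 in LncHSC-1-KD, LncHSC-2-KD and Control-KD. Cxcr3, which binds Cxcl9 and Cxcl10, stood at 1.38 and 1.48 FPKM in granulocytes and at 1.31, 0.664 and 0.600 in the KSL libraries, a read ratio of 1.13 (0.39 to 1.91) in LncHSC-1-KD against control on 56 against 22 reads. Ccr3 stayed below 1 FPKM in every library, and Cxcr7, the second receptor of Cxcl12, below 0.1. Of 24 receptor genes 2 were at the KSL floor, Cxcr4 and Ccrl2, with log2 ratios to control of 0.017 and 0.17 in LncHSC-1-KD. Below the floor, Ccr6, Ccr7, Ccr9 and Cxcr5 had read ratio intervals above 0 in LncHSC-1-KD against control, as did Cxcr3.

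**Figure D4:**
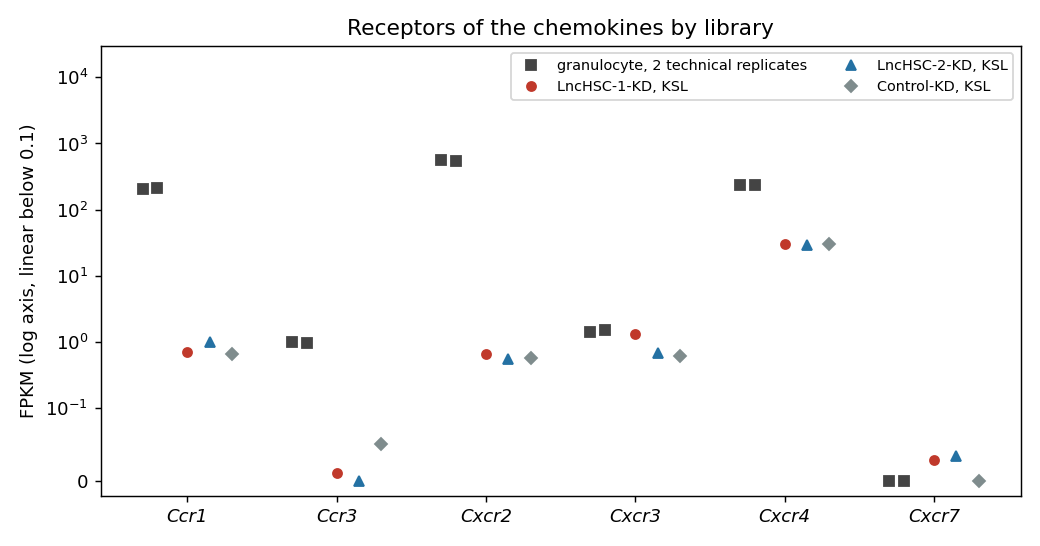
FPKM of 6 receptors of the chemokines in the 2 granulocyte replicates and the 3 KSL libraries; the axis is logarithmic above 0.1 and linear below. Cxcr2 and Ccr1 are above 200 FPKM in granulocytes and below 1 FPKM in KSL cells, and Cxcr4 is high in both.

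Interferon response genes, most B lineage markers and most monocyte, macrophage and dendritic markers also stood above control in LncHSC-1-KD. All 38 interferon response genes measured stood above control there, with 0 past 2-fold and a median log2 ratio of 0.37, against -0.019 over all features at the floor. Furthest from control was Ifit3, an antiviral protein gene, with 48.5 FPKM in LncHSC-1-KD and 25.6 in Control-KD (0.89). The log2 ratio was 0.80 for Mx1, a GTPase that blocks influenza virus, and 0.71 for Zbp1, a sensor of Z-form nucleic acids. In LncHSC-2-KD 31 of the 38 stood above control, with a median of 0.029. Of all features at the floor 43.8% stood above control in LncHSC-1-KD and 52.1% in LncHSC-2-KD, where their median was 0.0047. In granulocytes Ifit3 stood at 6.95 and 6.70 FPKM and Mx1 at 1.43 and 1.40.

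Of 18 B lineage markers 8 were at the floor, and 3 of these were at least 2-fold above control in LncHSC-1-KD, Pou2af1 (1.19), Ly6d (1.104) and Blnk (1.00). Of all 18, 15 stood above control there. The summed FPKM of the 18 was 186 in LncHSC-1-KD, 103 in LncHSC-2-KD and 96.3 in Control-KD. Rag1, the recombinase of early B cells, was at 0.0104 FPKM in LncHSC-1-KD, on only 2 estimated reads, and at 0 in the other two. Vpreb1, Vpreb3 and Rag2 were lower in LncHSC-1-KD than in control, with read ratio intervals that include 0. Of the monocyte, macrophage and dendritic markers 23 of 24 were found, none at 0, and their sum was 472, 321 and 311 FPKM in the same order. Of the 23 found, 18 stood above control in LncHSC-1-KD. At the floor were 9 of them, of which 8 stood above control in LncHSC-1-KD and 0 passed 2-fold, with a median log2 ratio of 0.49. Cd74, the invariant chain of antigen presentation, stood furthest at 143, 83.0 and 73.7 FPKM, followed by the MHC class II genes H2-Aa (0.88) and H2-Eb1 (0.73), all of which B cells also express. Of the other genes of this list, Ly86 (0.67), Ms4a6c (0.49) and Mpeg1 (0.44) also stood above control in LncHSC-1-KD, with read ratio intervals above 0. Below the floor, Cd14, Fcgr1 and Siglech had read ratio intervals above 0 in LncHSC-1-KD against control. The other genes of this list below the floor had intervals that include 0. Among them were the macrophage genes Csf1r (2.31 and 2.24 FPKM in LncHSC-1-KD and Control-KD), Emr1 (2.82 and 2.79) and C1qa (3.09 and 3.17). Flt3, a receptor gene listed among both dendritic markers and stem cell genes, was lower, at 22.0 FPKM in LncHSC-1-KD and 24.4 in Control-KD. T and NK markers summed to 113, 98.1 and 103 FPKM. Cd3e, Gzma and Prf1 were at 0 in both knockdown libraries and held only 1, 2 and 4 estimated reads in Control-KD. Of the 5 T and NK markers at the floor 4 stood above control in LncHSC-1-KD, with a median log2 ratio of 0.32 and a highest of 0.55. Below the floor, Klrk1 held 22 reads in LncHSC-1-KD and 7 in Control-KD, with a read ratio interval above 0. Mature granulocyte markers summed to 199, 204 and 206, and mast cell and basophil markers to 118, 96.9 and 104 FPKM. Most of the mast cell and basophil sum was Gata2, at 91.8, 75.6 and 78.6 FPKM, which stem cells also express. Of these 12 markers 7 stood above control in LncHSC-1-KD. Below the floor, Tpsb2 (3.62 and 1.79 FPKM in LncHSC-1-KD and Control-KD), Cma1 (2.07 and 0.992) and Mcpt4 (1.35 and 0.524) had read ratio intervals above 0. Hdc and Prss34, also below the floor, had intervals below 0. Stromal and endothelial markers, the usual source of Cxcl12, summed to 151, 163 and 161 FPKM, with Lum, Dcn and Bglap at 0 in each KSL library. Most of that sum was Angpt1 and Pecam1, which stem cells also express. The part of these cells in the Cxcl10 and Ccl5 values was not tested.

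At the floor, NF-κB and interferon-γ pathway genes lay closer to control. Of 18 NF-κB pathway genes 13 were at the floor, 0 were 2-fold from control in LncHSC-1-KD, and their median log2 ratio was 0.10 there and -0.0068 in LncHSC-2-KD. Of these 13 genes 10 stood above control in LncHSC-1-KD. Read ratio intervals lay above 0 there for Relb, Nfkb2, Nfkbib, Nfkbie and Icam1, and below 0 for Nfkb1. Relb, an NF-κB subunit, was furthest from control of the genes at the floor, at 6.14, 4.51 and 4.99 FPKM in LncHSC-1-KD, LncHSC-2-KD and Control-KD. Rela, another subunit, stood at 24.8, 24.6 and 24.8 FPKM in the same order, and its target Tnf at 5.04, 4.39 and 5.82. Below the floor, Traf1 stood at 3.44, 1.74 and 1.71 FPKM, a read ratio of 1.01 (0.65 to 1.37) in LncHSC-1-KD against control. Il1a, also below the floor, had a read ratio interval just above 0 in that comparison. Rel and Il1b, below the floor too, were lower than control there, with intervals that include 0. Of 13 interferon-γ pathway genes 10 were at the floor, with a median of 0.069 in LncHSC-1-KD and -0.00059 in LncHSC-2-KD. Of these 10 genes 8 stood above control in LncHSC-1-KD. This list also holds the receptor genes of other interferons, Ifnar1 and Ifnar2, and their kinase gene Tyk2. Below the floor, the read ratio of LncHSC-1-KD to control was 0.69 (0.35 to 1.04) for Ciita and -0.032 (-0.27 to 0.20) for Socs3. Irf1 stood at 41.2, 39.1 and 38.6 FPKM in LncHSC-1-KD, LncHSC-2-KD and Control-KD. Irf8, a factor of monocytes, dendritic cells and B cells, stood at 14.8, 10.8 and 9.60, the furthest of that list at the floor, at 0.57 in LncHSC-1-KD. Ifng itself was at 0.0831 FPKM or less in every library.

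**Figure D5:**
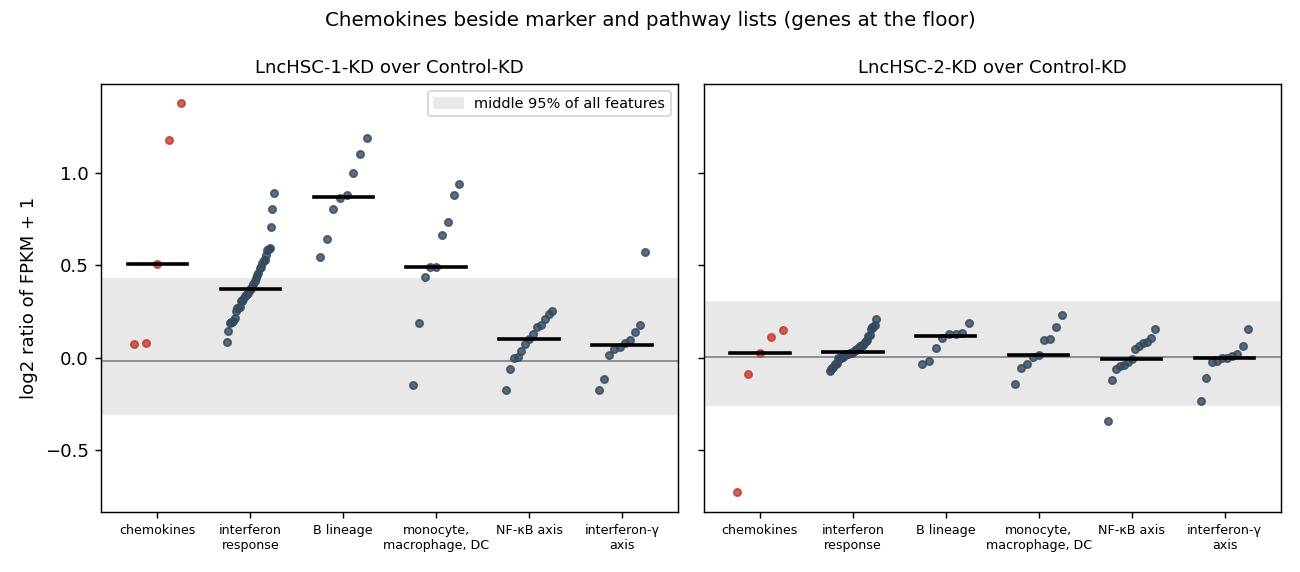
Log2 ratio of FPKM + 1 to control for the 5 chemokines and the marker and pathway genes at the floor in LncHSC-1-KD (left) and LncHSC-2-KD (right); black bars are medians, and the grey band is the middle 95% of all features. In LncHSC-1-KD Cxcl10 and Ccl5 stand at 1.38 and 1.18, beyond each interferon response gene, and in LncHSC-2-KD Ccl4 at -0.73 lies below each other point drawn.

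The genes closest in pattern were sought by distance in the 2 log2 ratios to control, over 3 libraries and 7940 named genes. Closest to Cxcl10 were Ms4a4c (60.3, 24.2 and 23.2 FPKM in LncHSC-1-KD, LncHSC-2-KD and Control-KD; distance 0.067), Cfb (0.16) and Pou2af1 (0.20). Closest to Ccl5 were Pyhin1 and Pydc3 (both 0.17) and Ly6d (0.21). Closest to Ccl4 were the transcription factor gene Gtf2a2, at 44.0, 24.8 and 42.6 FPKM in the same order (0.047), the mitochondrial ribosome gene Mrps21, at 68.9, 40.6 and 69.0 FPKM (0.085), and Endod1 (0.20). A match over 3 libraries describes these libraries only.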

How the data were processed

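RNA-seq tables of 5 libraries were read as deposited. Per the submitters' processing notes the genome build was mm9 and DESeq was used; no source used here names the aligner, counter or annotation release. The tables hold FPKM and counts, per the file headers. The deposited KSL count columns were treated as a signal, reads times 1 factor per library: among values of at most 20 reads, 91.9% to 92.2% fell within 0.1 read of a whole number. Division by the value of 1 read gave estimated reads. No count test was run, as no KSL group has a replicate. The deposited granulocyte counts were treated as a score, rounded after scaling, since replicate 1 never takes the value 8. The authors' granulocyte FPKM is that score over transcript length and 1 fixed divisor, the same in both replicates. P-values would in any case measure only the spread between technical replicates.

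Log2 ratios used FPKM + 1, which understates changes of low genes, over features with a mean of at least 5 FPKM in the 3 KSL libraries; 2-fold was a rule of size. Exact binomial 95% intervals of read ratios carry no pseudocount. Scripts used Python 3.11.15, pandas 2.3.3, NumPy 2.4.6 and SciPy 1.17.1, and ratios were tested on simulated data. The genes, marker lists and naming rule (all 9 genes, up to 4 genes per list, the receptors of the 9, and the 3 nearest genes of members past 1.5-fold) were chosen with earlier results of these data known. Overlapped and motif-bearing genes, Ccl22 and other genes outside that rule were chosen after their values were seen. Other pseudocounts, floors and the count columns were tried as alternatives. Values of 2 genes of these lists are not reported here.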

Additional observations from a re-analysis of the deposited data

How the results depend on the processing

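Cxcl10 and Ccl5 were the 2 chemokines past 2-fold in LncHSC-1-KD against control and against LncHSC-2-KD with a pseudocount of 0.1 FPKM, with the deposited count columns as they stand or centred, with a floor of 1 FPKM and with no floor. With neither floor nor pseudocount, tried after the data were seen, the counts were 5 of 9 in LncHSC-1-KD against control, 4 in LncHSC-1-KD against LncHSC-2-KD, and 2 in LncHSC-2-KD against control, where 0 was the count otherwise; the genes added hold few reads. In granulocytes 7 chemokines reached 1 FPKM and 1 reached 10 FPKM, against 4 at 5 FPKM, and 4 reached 5 FPKM without either replicate. The uncentred count columns place the median feature at -0.14 on the log2 scale in LncHSC-2-KD against control and at 0.12 in LncHSC-1-KD against LncHSC-2-KD; there Ccl9 is at -0.12 and Cxcl10 at -0.035, the sign turned, while Ccl6 is at 0.05 in LncHSC-1-KD against LncHSC-2-KD. No paired analysis was possible because each KSL group has 1 library. Depth limits Ccl6, Cxcl2, Cxcl9 and Cxcl12, which held 25 or fewer reads in each KSL library.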
